A study of Mus musculus with 4 samples.

Results

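The interferon response and immunoproteasome genes are a list of 51 genes that cells switch on after meeting an interferon, together with the genes of the interferon receptors. They were followed in aortic smooth muscle cell cultures from Cre-negative and Cre-positive mice with floxed Mmp14, the gene of the collagenase MT1-MMP. The genes were picked by name from a list that was drawn up with earlier results of these data known, and 48 of the 51 had an array row of their own among 22180 such genes. Ifi44 had no row listed under its name, and Gbp2 and Irf5 shared their row with another gene, so these 3 were not analysed here. Of the 48, 42 had a mean level at or above 3.02, the median of all rows, and were tested among 12550 genes. The other 6, Irf7, Nlrc5, Oas3, Mx1, Mx2 and Trim30a, were dimmer and are given as values.

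The cells were primary vascular smooth muscle cells (VSMCs) from mouse thoracic aorta, grown for 5 days in medium with serum after the adventitia had been removed. All mice lacked Apoe (Apoe(−/−)), carried floxed Mmp14 alleles (Mmp14(fl/fl)) and had been fed Western diet for 3 months, so both groups share the Apoe loss and the diet. The 2 control arrays came from Cre-negative animals and the 2 knockout arrays from Cre-positive animals, in which the SM22α (Tagln) promoter drives Cre in smooth muscle. The design text names 2 separate pairs of mice and gives no age or sex, and the spread between arrays therefore covers mouse, culture and hybridisation together. Values are log2 expression levels per gene, and a difference of 1 is a doubling. No level is set against that of another gene. With 2 arrays against 2, the smallest two-sided exact permutation p is 0.333, so limma's fit over all genes served as the test.

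Type I interferons bind a receptor made of Ifnar1 and Ifnar2 and act through a complex that includes Stat2 and Irf9 and binds the interferon-stimulated response element of antiviral genes. Interferon gamma binds Ifngr1 and Ifngr2 and acts through the gamma-activated site of its target genes. Interferon gamma in particular exchanges the catalytic subunits of the proteasome for Psmb8, Psmb9 and Psmb10, and the peptides of this immunoproteasome are carried by Tap1 and Tap2 to MHC class I molecules. Members were sorted into type I and gamma classes by the interferon each is best known for, although many answer to both.

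The promoters of 40 of the 51 genes were found by symbol in a RefSeq table of build GRCm38.p6, which runs from 250 bases before to 50 bases after a gene's start. The response element core was searched on both strands as GAAA followed by any 2 bases and GAAA again, and the gamma-activated site core as TTCNNNGAA, which reads the same on both strands. The first stood in the promoters of 18 of the 40 members (45%) and of 1079 of 27025 genes in the table (3.99%). The second stood in 11 members (27.5%) and 2582 genes in all (9.55%). Such a match is a description of letters and does not show binding. The windows below are of members on which the results turn, with the matches in capitals: 4 whose level was high in knockout array 1 (Isg15, Ifit1, Bst2, Igtp), the neighbours Ifit2 and Ifit3, whose group differences had opposite signs, and 3 others that were high in both knockout arrays (Slfn5, Psmb8, Irf8). Slfn2 and Psmb9, also high in both, had no match of either kind. Capitals mark the gamma-activated site core in Ifit2, Psmb8 and Irf8, the response element core in Isg15, Ifit1, Ifit3 and Slfn5, and both kinds in Bst2, where they overlap, and in Igtp. The windows lie at chr4:156200845-156200926 (minus strand), chr19:34640755-34640843 (plus strand), chr8:71537557-71537638 (minus strand), chr11:58199481-58199555 (plus strand), chr19:34583343-34583446 (plus strand), chr19:34550444-34550491 (plus strand), chr11:82951917-82951986 (plus strand), chr17:34198068-34198136 (plus strand) and chr8:120736157-120736243 (plus strand), in the order of the lines, and are written along the gene's strand.
Isg15: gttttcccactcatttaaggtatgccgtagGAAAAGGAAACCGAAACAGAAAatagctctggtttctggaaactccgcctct
Ifit1: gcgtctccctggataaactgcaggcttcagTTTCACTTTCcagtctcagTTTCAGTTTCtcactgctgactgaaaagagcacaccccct
Bst2: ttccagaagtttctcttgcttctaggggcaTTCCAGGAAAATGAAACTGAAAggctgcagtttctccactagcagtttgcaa
Igtp: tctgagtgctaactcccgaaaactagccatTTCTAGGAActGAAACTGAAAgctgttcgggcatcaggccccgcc
Ifit3: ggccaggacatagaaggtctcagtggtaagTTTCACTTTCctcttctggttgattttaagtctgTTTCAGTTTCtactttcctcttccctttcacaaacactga
Ifit2: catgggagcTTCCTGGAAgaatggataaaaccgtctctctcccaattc
Slfn5: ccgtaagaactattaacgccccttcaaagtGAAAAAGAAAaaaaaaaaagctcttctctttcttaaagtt
Psmb8: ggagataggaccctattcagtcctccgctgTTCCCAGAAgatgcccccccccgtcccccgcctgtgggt
Irf8: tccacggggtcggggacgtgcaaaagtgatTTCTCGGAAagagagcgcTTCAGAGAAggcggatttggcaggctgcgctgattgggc

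Interferon response and immunoproteasome genes were mostly at higher levels in the knockout arrays, in 2 different patterns. A set led by Psmb8, Psmb9, Irf8 and Slfn2 was higher in both knockout arrays. A set of type I genes led by Isg15 and Ifit1 was higher in knockout array 1 and near or below the controls in knockout array 2. Of the 42 tested members, 37 had a positive difference and 5 a negative one, against 5234 positive and 7316 negative of all genes tested, and the median difference was 0.47 against -0.052 over all genes.

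Both knockout arrays lay above both control arrays for 20 of the 42 members, where this held for 16.7% of all genes tested. They lay below both for 1 member, Ifit2, against 27.5% of all genes. No member passed limma's test adjusted over all genes, which called 0 of 12550 (0%). The smallest adjusted p of a member was 0.137, for Slfn2. At an unadjusted p under 0.05 there were 11 members higher, against 4.89% of all genes, and 1 lower, again Ifit2, against 6.78%. With control array 1 left out, 31 members lay above, against 29.5% of all genes, and with control array 2 left out 23, against 30.1%. With knockout array 1 left out, 21 members lay above, against 31.7% of all genes, and with knockout array 2 left out 35, against 27.7%.

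**Figure D1:**
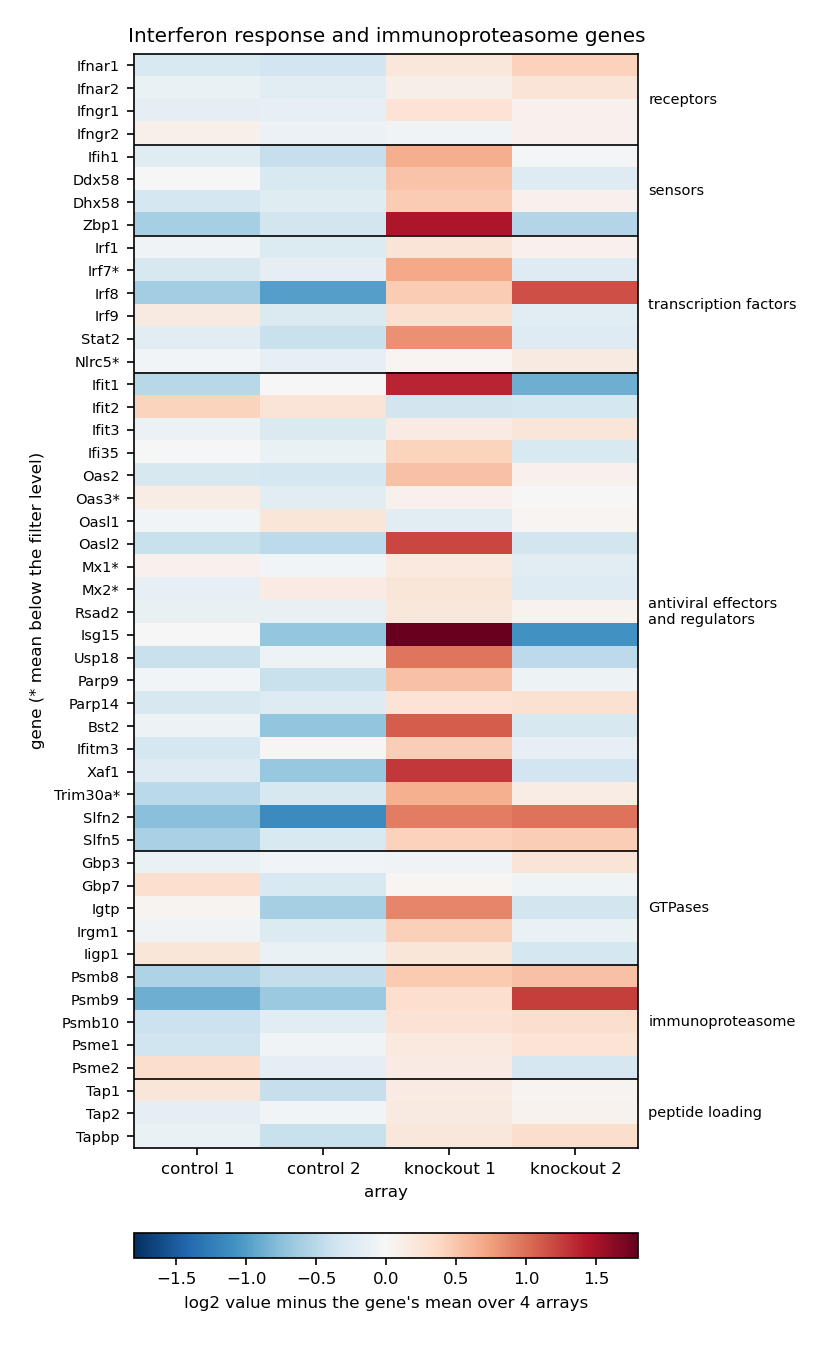
Colour gives the log2 value of each of 48 members (rows, in role groups) in each of 4 arrays (columns), minus the gene's mean over the arrays. Knockout array 1 is red for most sensors and antiviral genes, with Isg15 the deepest, while the immunoproteasome rows from Psmb8 to Psme1 are red in both knockout arrays. An asterisk marks the 6 genes below the filter level.

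Macrophage transcripts differed between the same groups and stand beside every result here. All 23 genes of a macrophage list had positive differences, with a median of 1.15. Both knockout arrays lay above the controls for 21 of them, against 16.7% of all genes tested. Their summed log2 level was 165.0 in each control array and 186.9 to 193.3 in the knockout arrays, the higher of the pair in knockout array 2. Ptprc, the leukocyte antigen CD45, read 6.60 and 6.68 in controls, with 8.26 and 8.53 in knockouts. Adgre1, the macrophage protein F4/80, read 6.07 and 5.96 in controls, with 7.92 and 7.59 in knockouts. The 10 tested endothelial genes had a median difference of -0.68, and 7 of them lay below the controls, against 27.5% of all genes tested. Pecam1, Cdh5, Ptprb and Emcn differed by -2.49, -2.51, -2.88 and -2.48, while 3 of the 10 had positive differences. The 12 smooth muscle genes had a median difference of -0.0055. In RNA of a whole culture, fewer cells of a type and less RNA per cell cannot be told apart, and the part of these shifts in the members' values was not tested. The smooth muscle actin gene Acta2 read 11.33 and 11.05 against 11.40 and 10.89, and Myh11, the smooth muscle myosin gene, 4.98 and 5.45 against 5.50 and 5.12. Mmp14 itself read 8.71 and 9.05 in controls, with 8.27 and 8.19 in knockouts, a difference of -0.65 (SE 0.17; limma, adjusted p = 0.319), on a row whose place relative to the deleted exons is not known here.

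Of the 4 receptor genes, 3 were higher in both knockout arrays than in either control array, against 16.7% of all genes tested. Ifngr2 overlapped. Ifnar1, a chain of the type I receptor, read 6.93 and 6.86 in controls, with 7.42 and 7.62 in knockouts. The knockout arrays were alike and 1.54 times the control level, a difference of 0.62 (SE 0.15; limma, adjusted p = 0.283). Its partner chain Ifnar2 read 8.44 and 8.35 in controls, with 8.66 and 8.79 in knockouts, a difference of 0.33 (SE 0.14; limma, adjusted p = 0.469). Ifngr1, the ligand-binding chain of the gamma receptor, read 6.81 and 6.82 in controls, with 7.22 and 7.05 in knockouts, a difference of 0.32 (SE 0.14; limma, adjusted p = 0.485). The accessory chain Ifngr2 read 7.55 and 7.36 in controls, with 7.40 and 7.53 in knockouts, with a difference of 0.013 and a 95% interval of -0.38 to 0.41. Its sign changed, to -0.017, when the arrays were centred on their medians. In the RefSeq gene order Ifnar2, Ifnar1 and Ifngr2 lie close together, with no protein-coding gene between the last 2, and Ifnar1 and Ifngr2 nevertheless differed in how the groups separated. Knockout array 1 minus array 2 ran from -0.21 to 0.17 over the 4 receptor genes.

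The cytosolic nucleic acid sensors were all highest in knockout array 1. Zbp1, a sensor of Z-form nucleic acid, read 4.06 and 4.32 in controls, with 6.11 and 4.13 in knockouts. Knockout array 2 lay between the control arrays, so the group difference of 0.93 (SE 0.66; limma, adjusted p = 0.634) rested on knockout array 1, without which it was -0.064. Ifih1, which encodes the sensor MDA5, read 4.20 and 4.01 in controls, with 5.08 and 4.40 in knockouts, without overlap, a difference of 0.63 (SE 0.27; limma, adjusted p = 0.466). Dhx58, the regulatory helicase LGP2, read 2.87 and 2.97 in controls, with 3.64 and 3.27 in knockouts, also without overlap, a difference of 0.54 (SE 0.18; limma, adjusted p = 0.385). The RIG-I gene Ddx58 read 5.44 and 5.18 in controls, with 5.95 and 5.21 in knockouts, where knockout array 2 again fell between the controls, and differed by 0.27 over all arrays and by -0.096 without knockout array 1. The 4 sensors thus had positive differences, and 2 of them lay above the controls without overlap, against 16.7% of all genes tested.

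The transcription factors divided in the same way. Irf8, a factor of myeloid cells that interferon gamma also induces, read 5.53 and 5.16 in controls, with 6.61 and 7.31 in knockouts. It was higher in both knockout arrays, and more so in array 2, with a difference of 1.61 (SE 0.29; limma, adjusted p = 0.213). A second, dimmer row of Irf8 differed by 1.25. Irf1, an early target of interferon gamma, read 3.36 and 3.19 in controls, with 3.67 and 3.51 in knockouts, without overlap, a difference of 0.31 (SE 0.15; limma, adjusted p = 0.507). Stat2, a part of the type I complex, read 5.21 and 5.01 in controls, with 6.24 and 5.18 in knockouts, and here knockout array 1 stood more than 1 log2 unit above the other knockout array, which lay within the control range. Its difference was 0.59 (SE 0.37; limma, adjusted p = 0.589). Irf9, the DNA-binding partner of Stat2, read 4.52 and 4.11 in controls, with 4.66 and 4.18 in knockouts, with overlap and a difference of 0.10, or -0.14 without knockout array 1. Irf7, the factor that amplifies type I responses, was below the filter level and read 2.71 and 2.83 in controls, with 3.67 and 2.76 in knockouts, again high in knockout array 1. Nlrc5, the activator of MHC class I genes, was dim in all arrays, at 2.83 and 2.74 against 2.92 and 3.05.

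Among the 17 tested antiviral effectors, 6 were higher in knockout array 1 than in array 2 by at least 1 log2 unit. They were Isg15, Ifit1, Xaf1, Oasl2, Usp18 and Bst2. That order held for 1.17% of all genes tested. Isg15, the ubiquitin-like modifier, read 5.71 and 5.02 in controls, with 7.51 and 4.63 in knockouts. Knockout array 1 was 7.34 times knockout array 2, which was below both controls, and the group difference of 0.71 (SE 0.97; limma, adjusted p = 0.821) became -0.73 without knockout array 1 and 2.15 without knockout array 2. Usp18, the protease that removes Isg15 from proteins and damps type I signalling, read 3.80 and 4.11 in controls, with 5.17 and 3.73 in knockouts, the same order, and differed by 0.50 over all arrays and by -0.22 without knockout array 1. Ifit1, which binds viral RNA, read 4.23 and 4.73 in controls, with 6.10 and 3.85 in knockouts. Its knockout arrays differed by 2.25 and the group difference of 0.49 (SE 0.76; limma, adjusted p = 0.844) turned to -0.64 without knockout array 1.

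Xaf1, an interferon-induced regulator of apoptosis, read 5.89 and 5.44 in controls, with 7.40 and 5.78 in knockouts. Bst2, the tetherin that holds virions at the membrane, read 7.90 and 7.29 in controls, with 9.07 and 7.71 in knockouts. Oasl2, of the oligoadenylate synthetase-like family, read 3.23 and 3.15 in controls, with 4.83 and 3.30 in knockouts. In all 3 the first knockout array stood apart from the other arrays, and for Xaf1 and Bst2 the second lay within the control range. The differences were 0.92 (SE 0.56; limma, adjusted p = 0.58) for Xaf1, 0.80 (SE 0.50; limma, adjusted p = 0.589) for Bst2 and 0.87 (SE 0.52; limma, adjusted p = 0.569) for Oasl2. Parp9, Ifi35 and Ifitm3 also had knockout array 1 above both controls and knockout array 2 not, with group differences of 0.45, 0.13 and 0.30. Oas2, an oligoadenylate synthetase, was higher in both, at 2.96 and 2.93 against 3.76 and 3.32, a difference of 0.60 (SE 0.20; limma, adjusted p = 0.376).

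Counted over the list, 9 of the 42 tested members were higher in knockout array 1 than in array 2 by at least 1 log2 unit, against 1.17% of all genes tested. None was higher in array 2 by that much, against 2.06% of all genes. The 9 were Isg15, Ifit1, Zbp1, Xaf1, Oasl2, Usp18, Bst2, Igtp and Stat2, of which 8 belong to the type I class. Oasl2 alone of them also lay above both controls in knockout array 2. Against the control mean they stood 1.12 to 2.15 higher in knockout array 1, and at -0.73 to 0.12 in knockout array 2. Of the 7 of these 9 in the promoter table, 5 held the response element core (Isg15 with 3 overlapping matches, Ifit1 and Bst2 with 2 each, Igtp and Stat2) and 2 the gamma-activated site core. Of the 16 in the table among the 20 members that lay above the controls in both knockout arrays, 5 held the first core, 5 the second and 6 neither. The first core stood in 45% of the members and in 3.57% of all tested genes found in the table. In the type I class, to which 8 of the 9 belong, it stood in 12 of 21 (57.1%). The second stood in 27.5% of the members and in 8.21% of those tested genes. The differences between the knockout arrays compare 1 array with 1, without replicates.

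**Figure D2:**
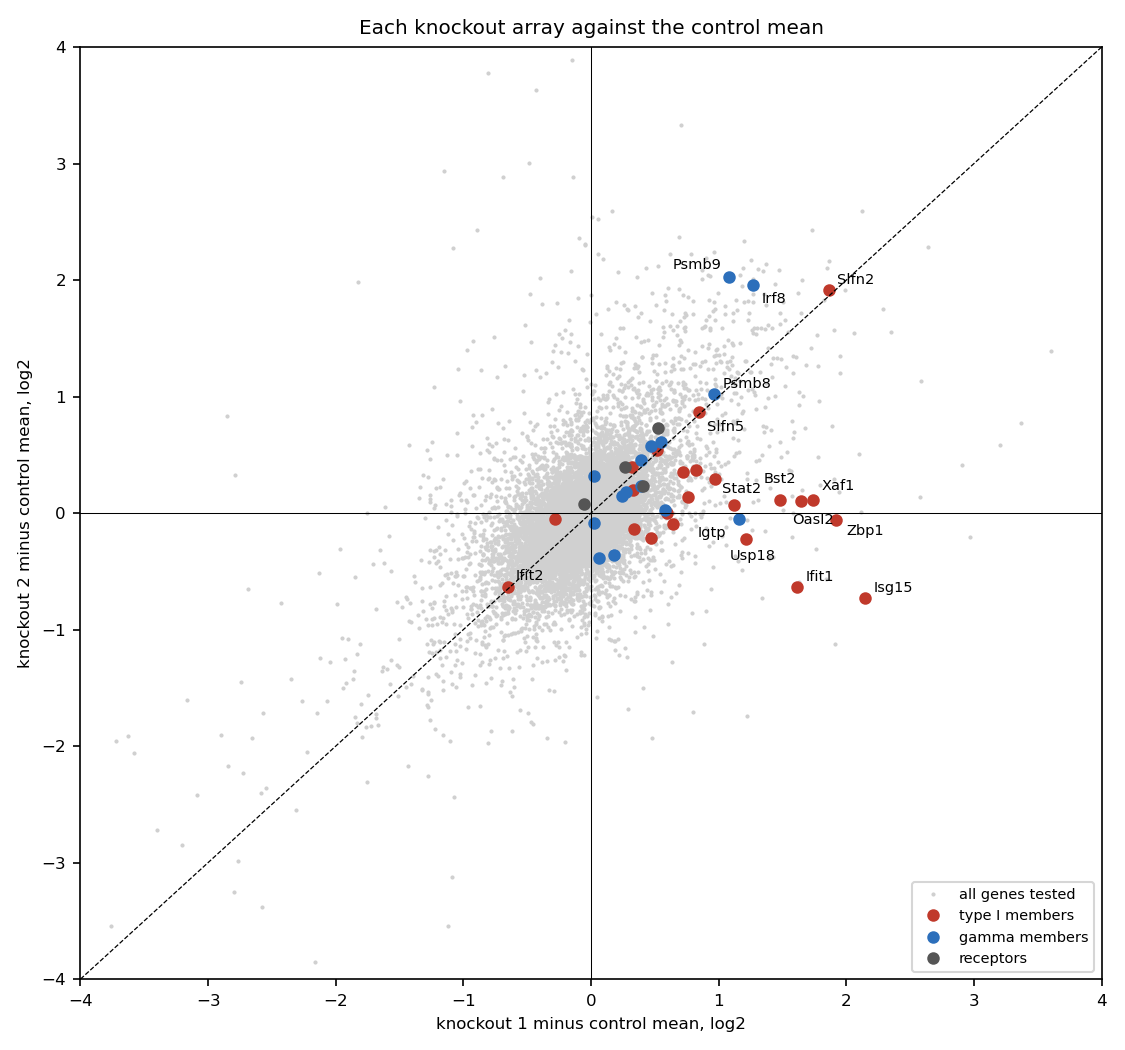
Each point is a gene, with its log2 level in knockout array 1 (horizontal) and knockout array 2 (vertical) minus the control mean; grey marks all genes tested, colours mark the members by class. Isg15, Ifit1, Zbp1 and Usp18 lie far to the right and below the horizontal line, while Slfn2 and Psmb8 lie near the dashed line of equal values and Psmb9 and Irf8 above it.

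Other effectors did not follow that order. Slfn2, a Schlafen family gene that keeps T cells quiescent, read 6.24 and 5.84 in controls, with 7.91 and 7.96 in knockouts. Both knockout arrays were alike and 3.71 times the controls, a difference of 1.89 (SE 0.18; limma, adjusted p = 0.137), the highest of the 42. Its relative Slfn5 read 2.79 and 3.09 in controls, with 3.78 and 3.80 in knockouts, likewise without overlap, a difference of 0.85 (SE 0.16; limma, adjusted p = 0.233). Parp14, an ADP-ribosyltransferase, differed by 0.53 (SE 0.13; limma, adjusted p = 0.303) with knockout arrays at 4.55 and 4.58. The Ifit genes, which lie in a cluster, had differences of opposite sign. Ifit3 read 4.97 and 4.81 in controls, with 5.21 and 5.28 in knockouts, a difference of 0.35 (SE 0.14; limma, adjusted p = 0.448). Ifit2, its immediate neighbour, read 4.58 and 4.41 in controls, with 3.84 and 3.86 in knockouts, a difference of -0.64 (SE 0.14; limma, adjusted p = 0.266) that was lower in both knockout arrays. Rsad2, the viperin gene, was without overlap at 3.34 and 3.35 against 3.67 and 3.54, a difference of 0.26, and Oasl1 overlapped, with a difference of -0.17. Of the dim effectors, Trim30a read 2.39 and 2.58 in controls, with 3.51 and 3.01 in knockouts, while Mx1, Mx2 and Oas3 differed by -0.028, -0.0074 and 0.077, with overlap.

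The interferon-inducible GTPases, which attack the vacuoles of intracellular microbes and are classic gamma-responsive genes, overlapped between groups in all 5 tested members, where 16.7% of all genes lay above and 27.5% below. Igtp (Irgm3) read 4.04 and 3.40 in controls, with 4.88 and 3.67 in knockouts, a difference of 0.56 (SE 0.46; limma, adjusted p = 0.69) that was -0.0475 without knockout array 1. Irgm1 read 5.22 and 5.04 in controls, with 5.71 and 5.16 in knockouts, also highest in knockout array 1, and differed by 0.30. Iigp1 and the guanylate-binding proteins Gbp3 and Gbp7 had differences of -0.091, 0.17 and -0.031, within the spread of the control arrays for Iigp1 and Gbp7. Iigp1 changed sign, to 0.18, without knockout array 2. The group median was 0.17, and -0.0475 without knockout array 1.

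The immunoproteasome genes were higher in both knockout arrays, for 4 of 5 members, against 16.7% of all genes tested. Psmb8, the inducible catalytic subunit LMP7, read 5.10 and 5.23 in controls, with 6.13 and 6.18 in knockouts. The arrays of each group were alike and the knockout level was 1.99 times the control level, a difference of 0.99 (SE 0.14; limma, adjusted p = 0.161). Psmb9, the subunit LMP2, read 4.61 and 4.82 in controls, with 5.79 and 6.73 in knockouts, 2.93 times the control level, and was higher in knockout array 2 than in array 1. Its difference was 1.55 (SE 0.34; limma, adjusted p = 0.262). Psmb10, the subunit MECL-1, read 6.12 and 6.33 in controls, with 6.78 and 6.84 in knockouts, a difference of 0.58 (SE 0.15; limma, adjusted p = 0.314). The 11S activator subunit Psme1 (PA28 alpha) read 6.30 and 6.60 in controls, with 6.84 and 6.91 in knockouts, a difference of 0.42 (SE 0.16; limma, adjusted p = 0.438). Its partner Psme2 did not share this, at 5.72 and 5.25 against 5.55 and 5.10, with a difference of -0.16 and a 95% interval of -0.82 to 0.49. The median difference of the 5 was 0.58, between 0.475 and 0.68 with any array left out.

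The standard proteasome genes were set beside these. Psmb5, which Psmb8 replaces, read 9.23 and 9.44 in controls, with 9.22 and 9.23 in knockouts, a difference of -0.11 with a 95% interval of -0.50 to 0.28. Psmb6, the counterpart of Psmb9, differed by 0.23 (interval -0.14 to 0.59) and Psmb7, that of Psmb10, by -0.16 (interval -0.50 to 0.19). In each of the 3 pairs the interval of the standard subunit lay below the difference of the inducible one. Of the 21 tested standard proteasome genes, 6 had positive and 15 negative differences, with a median of -0.065, close to that of all genes. For 2 of them both knockout arrays lay above the controls and for 5 below, shares near the 16.7% and 27.5% of all genes. Of the 5, Psmd11, a regulatory particle subunit, had the largest difference (-0.42) and Psmc2, an ATPase subunit, differed by -0.15.

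**Figure D3:**
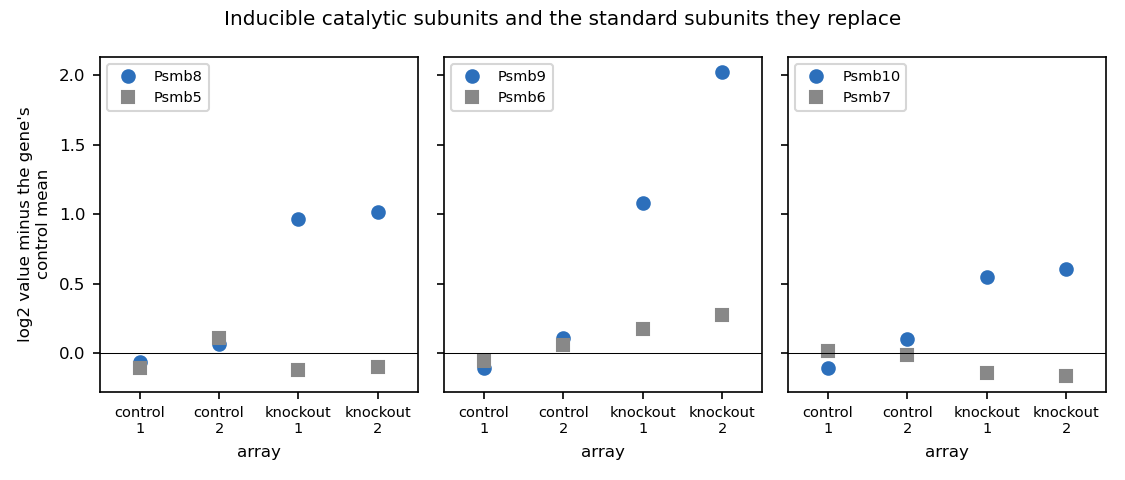
Each panel gives, for the 4 arrays (horizontal), the log2 value minus the gene's control mean (vertical) of an inducible catalytic subunit (blue circles) and of the standard subunit it replaces (grey squares). The inducible subunits stand above 0 in both knockout arrays, with Psmb9 highest in knockout array 2, and the standard subunits stay within 0.3 of 0.

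Among the peptide loading genes, Tapbp, the tapasin that bridges the transporter to MHC class I, read 6.07 and 5.80 in controls, with 6.41 and 6.51 in knockouts. It did not overlap between groups, with a difference of 0.52 (SE 0.16; limma, adjusted p = 0.36), and a second, dimmer row of it differed by 0.22. The transporter gene Tap2 read 3.23 and 3.35 in controls, with 3.56 and 3.47 in knockouts, a difference of 0.23 (SE 0.14; limma, adjusted p = 0.584). Tap1, whose gene is next to Psmb9, read 5.32 and 4.68 in controls, with 5.24 and 5.15 in knockouts. It overlapped, unlike its neighbour, and its difference of 0.19 became -0.13 without control array 2 and 0.51 without control array 1. That last value was also the median of the 3 genes, which was 0.23 over all arrays.

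A further list held MHC class I genes together with genes that trim peptides or help the molecules fold. Of its 9 tested genes, 6 were likewise higher in both knockout arrays, against 16.7% of all genes. For 1, Canx, both knockout arrays lay below the controls, against 27.5% of all genes. The median difference of the 9 was 0.55. H2-K1, a classical class I heavy chain, read 7.18 and 6.77 in controls, with 7.68 and 8.21 in knockouts, a difference of 0.97 (SE 0.25; limma, adjusted p = 0.318). Erap1, the aminopeptidase that trims peptides in the endoplasmic reticulum, differed by 0.87 (SE 0.16; limma, adjusted p = 0.222). The non-classical genes H2-Q4 and H2-M3 differed by 0.62 and 0.60, and all 4 were higher in knockout array 2 than in array 1. The light chain gene B2m was high in every array and differed by 0.12. The chaperone genes Calr, Canx and Pdia3 differed by -0.12, -0.034 and -0.13.

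The 23 type I and 15 gamma members were set side by side in each knockout array, as the median over members of the log2 value minus the gene's control mean. In knockout array 1 the type I median was 0.82 and the gamma median 0.39, with 21 of 23 and 15 of 15 members above the control mean. In knockout array 2 the type I median was 0.11 and the gamma median 0.23, with 13 of 23 and 11 of 15 members above it. The type I median minus the gamma median was thus 0.43 in knockout array 1 and -0.12 in knockout array 2. Over all genes tested the medians were -0.059 and -0.044. Of these 12550 genes, 5112 lay above the control mean in knockout array 1 and 5508 in knockout array 2.

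Taken against each gene's mean over the 4 arrays, which also shows the controls, the type I medians were -0.22 and -0.27 in the control arrays, 0.52 in knockout array 1 and -0.19 in knockout array 2. The gamma medians were -0.12, -0.24, 0.22 and 0.08 in the same order. On this scale a high value in 1 array lowers the gene's value in the others, so the knockout array 2 values below 0 do not stand for levels below the controls. Without the members known to answer to both interferons, the medians in knockout array 2 were -0.15 for type I and -0.0011 for gamma.

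As differences between groups, the class medians were 0.53 for type I and 0.31 for gamma members. The gamma median ran from 0.23 to 0.40 with any array left out, and the type I median from 0.11, without knockout array 1, to 0.82, without knockout array 2. The medians of the sensors, transcription factors and effectors were 0.58, 0.45 and 0.50, and 0.11, 0.15 and 0.11 without knockout array 1. Both knockout arrays lay above both controls for 9 of 23 type I and 8 of 15 gamma members, against 16.7% of all genes tested. Knockout array 1 alone lay above the controls for 12 type I and 3 gamma members. That last pattern held for 11% of all genes tested. These are values of 4 arrays over members that are not replicates, and no test was made of the difference between classes.

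**Figure D4:**
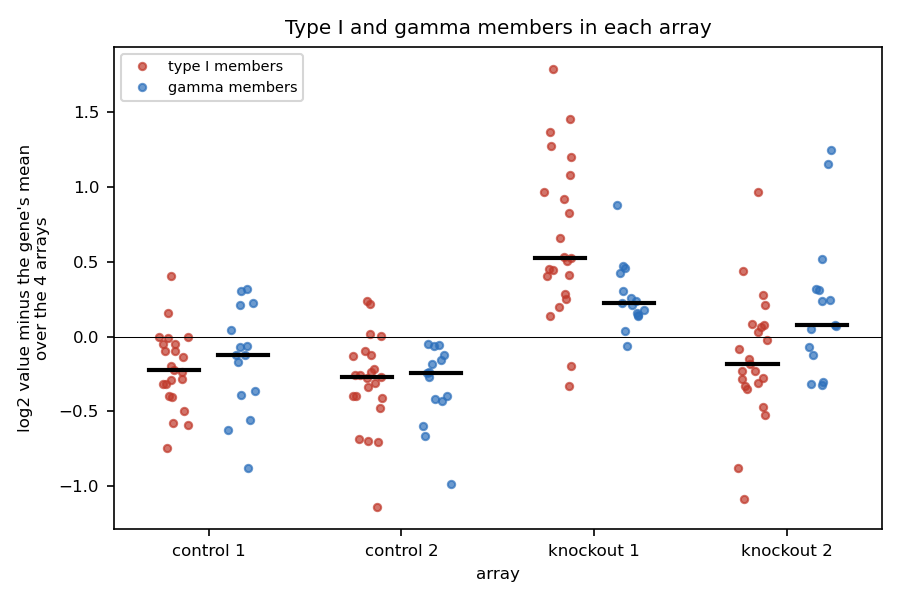
Points are the 23 type I (red) and 15 gamma (blue) members in each array (horizontal), as log2 value minus the gene's mean over the 4 arrays (vertical); black bars are medians. The red bar stands at 0.52 in knockout array 1 and at -0.19 in knockout array 2, the blue bar at 0.22 and 0.08; a high value in 1 array lowers a gene's other values on this scale.

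Markers of other cell types were set beside this order of the knockout arrays. The macrophage list had a median of -0.23 for knockout array 1 minus array 2, and 17 of its 23 genes were higher in array 2, the opposite of most type I members. The smooth muscle genes were higher in knockout array 1, by a median of 0.45, in 10 of 12. Over all genes tested the median of knockout array 1 minus array 2 was -0.021, and 5898 of 12550 genes were higher in array 1. Of 7 dendritic cell genes with a row 3 were dim. The 4 tested had positive group differences, 2 without overlap, where 16.7% of all genes tested lay above. The median of the 4 for knockout array 1 minus array 2 was -0.0044, although Itgax (CD11c), an integrin gene of dendritic cells and macrophages, was highest in knockout array 2, at 5.54 and 6.90 against 6.28 and 8.75. Of 10 T and NK cell genes 8 were below the filter level, and the 2 tested, Nkg7 and Klrb1c, were higher in knockout array 1 than in array 2, by 0.33 and 0.26. Among the dim ones, Cd8a, Ncr1, Gzmb and Prf1 were also higher in knockout array 1 and the CD3 chain genes Cd3e, Cd3d and Cd3g higher in knockout array 2, at 3.56, 3.17 and 3.16 there. The 3 B cell genes with a row of their own were below the filter level. Itgax and the T and NK cell genes named were chosen after their values were seen. The part of these shifts in the order of the type I members was not tested.

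The interferon ligand genes had a median difference of 0.06 over the 5 tested. Ifnb1, the type I interferon of most non-immune cells, was dim, at 1.98 and 2.06 against 1.95 and 2.01. Ifng, the gene of interferon gamma, read 2.89 and 3.30 in controls, with 3.13 and 3.18 in knockouts, a difference of 0.06 with a 95% interval of -0.43 to 0.55. Among the 5, Ifna1 lay without overlap above the controls (0.19) and Ifnl3 below (-0.46). With 1 gene each, these shares are near the 16.7% and 27.5% of all genes tested.

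Of the 22 tested signalling and regulatory genes, 21 had positive differences, with a median of 0.20, and 14 lay without overlap above the controls. Over all genes tested, 5234 differences were positive and 7316 negative, and 16.7% of genes lay above. Ptpn6, the phosphatase SHP-1 of blood cells, read 5.02 and 5.32 in controls, with 6.44 and 7.05 in knockouts, a difference of 1.57 (SE 0.26; limma, adjusted p = 0.2). Tlr7, the endosomal receptor for single-stranded RNA, differed by 1.23 (SE 0.28; limma, adjusted p = 0.268), Sp100, a nuclear body protein, by 0.92 (SE 0.31; limma, adjusted p = 0.38) and Jak2, a kinase of the gamma receptor, by 0.89 (SE 0.17; limma, adjusted p = 0.23). Jak1 and Tyk2, the kinases of the type I receptor, differed by 0.18 and 0.14. The 1 gene that lay below the controls, against 27.5% of all genes tested, was Pml, the scaffold of nuclear bodies, at -0.87.

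A further 24 tested interferon-stimulated genes, outside the list of members, included genes of both patterns. Their median difference was 0.37, with 21 positive and 10 without overlap above the controls, where 16.7% of all genes tested lay above. Ifi204, a DNA sensor of the p200 family, read 3.21 and 4.30 in controls, with 6.11 and 5.31 in knockouts, a difference of 1.95 (SE 0.46; limma, adjusted p = 0.28). The secreted glycoprotein gene Lgals3bp, the ubiquitin ligase gene Trim25 and the GTPase gene Irgm2 differed by 0.97, 0.91 and 0.89. By at least 1 log2 unit, 3 of the 24 were higher in knockout array 1 than in array 2, against 1.17% of all genes tested. These were Rtp4, at 3.05 and 2.66 against 5.43 and 2.99, and Slfn8, at 4.23 and 3.97 against 5.16 and 3.82. The third was Ifi27, at 8.78 and 8.31 against 9.50 and 8.30. The opposite order held for 2, against 2.06% of all genes tested. They were the chemokine gene Ccl5, at 4.66 and 5.27 against 5.13 and 7.56, and Cd274, at 4.66 and 4.45 against 4.56 and 7.09. Cd274 encodes the ligand PD-L1. These 5 genes were chosen after their values were seen. The gamma-induced chemokine genes Cxcl9, Cxcl10 and Cxcl11 were below the filter level and overlapped between groups.

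**Figure D5:**
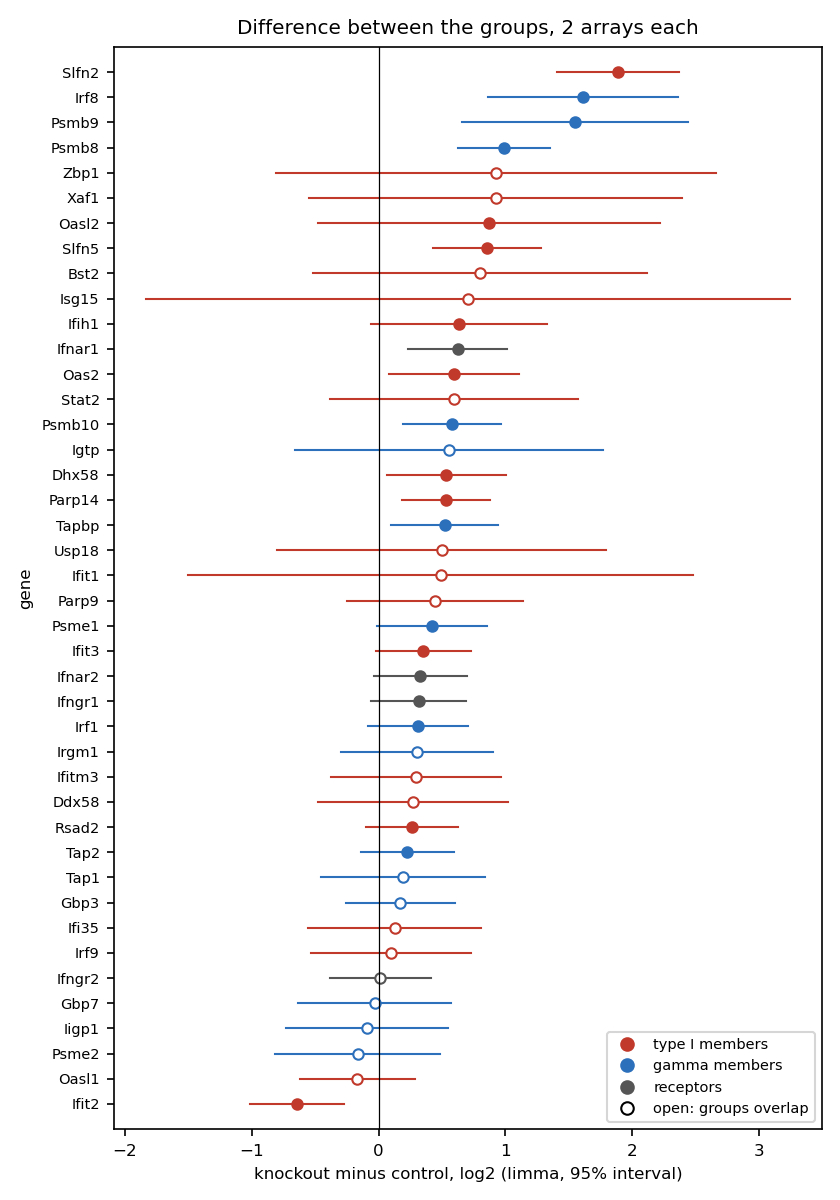
Points are the knockout minus control differences of the 42 tested members on the log2 scale (horizontal), with limma's 95% intervals as lines; filled points mark members whose groups do not overlap. The intervals are short for Slfn2, Psmb8 and Slfn5 and long for Isg15, Ifit1 and Zbp1, whose knockout arrays differ most, and none of these differences passed the test adjusted over all genes.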

How the data were processed

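Expression in 4 cultures was measured on Mouse Gene ST 2.1 arrays, per the series' design text, after amplification of 10 ng of total RNA, per the labels. The authors deposited values on a log2 scale, made with RMA per the submitters' processing notes. No software version or genome build is stated in what was used here, and the base of the logarithm follows from the span of the values. RMA equalises array distributions and compresses differences of dim genes. Rows were named through the platform annotation (23521 of 41345 rows had 1 symbol), keeping the brightest row of a gene. Genes with a mean of at least 3.02 entered lmFit and eBayes of limma (version 3.58.1 under R 4.3.3) as knockout minus control, with Benjamini-Hochberg adjustment over 12550 genes. The fit was tested on simulated data. Array medians ran from 3.01 to 3.05, and having 4 arrays limits precision. Pearson's r between arrays across rows, which are not independent, was 0.974 to 0.982.

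The members, classes and lists were chosen with earlier results of these data known. The rule for values in every array took up to 4 tested members per role by size of difference, the 10 members with the widest spread within a group, and up to 4 non-overlapping genes of each other list. It also took Ifnb1, Ifng, B2m, H2-K1, Psmb5, Psmb6 and Psmb7, with Mmp14, Ptprc and Adgre1 as checks. Values of any other gene were added after they were seen. A planned comparison of proteasome protein sequences was not run. Figures were drawn with matplotlib 3.10.9. The alternatives tried were a replicate block, other filters, scalings, row choices, variance models and class lists, and leaving out each array in turn.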

Additional observations from a re-analysis of the deposited data

How the results depend on the processing

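No gene was called over all genes in any of the 12 other fits, including the fit with the title number as a replicate block (0 genes called), which changed no call. The numbers do not show pairing, since the deviations of control 1 and knockout 1 had an r of 0.0454 over the tested genes. At an unadjusted p under 0.05 there were 16 members with the replicate block (12.2% of all genes), 8 without control array 1 (7.77%) and 21 without knockout array 2 (9.56%), against 12 (11.7%). With the 75th percentile filter, which tests fewer genes, 23 members were tested. Of these 23, 8 had an unadjusted p under 0.05 (13.7% of all genes). Above the controls lay 11 of the 23, against 20 of 42 with the main filter. The share of all genes lying above was not computed with this filter. The gamma median was 0.52 there. The count of members above ran from 21 to 35 with each array left out. Of 31 members followed through 359 refits, 14 refits of 10 members changed sign. One was Ifngr2 with the arrays centred on their medians (-0.0173). The others came from leaving out an array, with ranges of -0.0832 to 0.11 for Ifngr2, -0.0640 to 1.92 for Zbp1, -0.0962 to 0.64 for Ddx58, -0.14 to 0.34 for Irf9, -0.0475 to 1.16 for Igtp, -0.36 to 0.18 for Iigp1, -0.13 to 0.51 for Tap1, -0.73 to 2.15 for Isg15, -0.64 to 1.62 for Ifit1 and -0.22 to 1.22 for Usp18. The cause was not tested beyond the array left out. The smallest adjusted p of these members in any fit was 0.0794. Leaving out members known from both responses gave class medians of 0.50 and 0.36. Leaving out those listed as high in leukocytes, Irf8, Slfn2 and Ifitm3 among the tested, gave 0.53 and 0.31. That step kept 21 of the 23 type I and 14 of the 15 gamma members, so the medians could hardly move. It cannot show what part the macrophage shift had, which was not tested. The class medians against the control mean, 0.82 and 0.39 in knockout array 1 and 0.11 and 0.23 in knockout array 2, were added after seeing the data, and the type I median in knockout array 2 had the other sign against the mean of the 4 arrays (-0.19).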
